A study of Homo sapiens with 45 samples.

Results

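The stathmin family was followed in RNA-seq of 3 neuroblastoma cell lines treated with palbociclib (PB), an inhibitor of the cell-cycle kinases CDK4 and CDK6. Its members were taken by gene symbol, STMN1, STMN2, STMN3 and STMN4, which are 4 of the 29159 genes in the deposited counts, and all 4 passed the filter on low counts in every line. The lines were SK-N-BE(2)C (MYCN amplified), IMR-32 (MYCN and MEIS1 amplified) and SH-SY5Y (ALK mutant), all described by the study as adrenergic and as CDK4/6 wild type. Each line was sampled as a control without PB, after 24 h of PB and after longer PB, with 5 libraries in each of the 9 groups and 45 libraries in all. The dose was 1 μM. SK-N-BE(2)C had 7 days of longer treatment and the other lines 5 days, so a difference of duration cannot be told apart from a difference of line. Per the study's methods control RNA was taken at the 24 h harvest, and longer treatment therefore differs from it in time in culture too. The study counted cells of another passage, set up on another occasion, as a new biological replicate. Each line is a single established line, and all libraries of a line share its genome.

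Stathmins bind tubulin dimers and favour the disassembly of microtubules. STMN1, the cytosolic founder of the family, is abundant in dividing cells, where it is switched off by phosphorylation as the mitotic spindle forms. STMN2, STMN3 and STMN4 are largely neuronal, carry a palmitoylated membrane anchor and are found in the Golgi and in growing neurites and growth cones. 

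On GRCh37 with the GENCODE annotation, STMN1 (ENSG00000117632) lies at chr1:26210672-26233482 on the minus strand and STMN3 (ENSG00000197457) at chr20:62271058-62289035 on the minus strand. The positions of STMN2 and STMN4 are given with their levels. In the GENCODE annotation no exon of another gene lies antisense to an exon of any member. The one same-strand overlap there is 66 bases shared by STMN1 and the microRNA gene MIR3917. The gene models used for the counts may differ from it and were not checked. Promoter sequence was at hand in the RefSeq table for 2 of the 4 members, STMN1 and STMN3. The promoter of the main STMN1 start site is shown because STMN1 was the member that fell, and letters of E2F sites (TTTCCCGC, TTTCGCGC, TTTGGCGC, TTTGCCGC), of the cell-cycle homology region (TTTGAA) and of the CCAAT box were searched in it on both strands. Both stretches are written 5′ to 3′ on the strand of the gene, with the matching letters in capitals. The first runs from 250 to 48 bases before the start (chr1:26232958-26233160) and holds CCAAT, and the second runs from 49 to 20 bases before it (chr1:26232930-26232959) and holds TTTGGCGC. Of the 30 bases of the second, 28 are also annotated as STMN1 exon, against 0 in the first.
STMN1 upstream window: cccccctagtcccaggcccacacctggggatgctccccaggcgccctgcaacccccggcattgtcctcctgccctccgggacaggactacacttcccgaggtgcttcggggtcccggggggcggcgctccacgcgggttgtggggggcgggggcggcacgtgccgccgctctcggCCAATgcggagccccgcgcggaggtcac
STMN1 TTTGGCGC window: acgtgcctctgTTTGGCGCttttgtgcgcg
The TTTGGCGC letters lie 38 to 31 bases and the CCAAT letters 75 to 71 bases before the start, and TTTGAA was not found. Of the 2 other STMN1 promoters in the table, the one of a start upstream held TTTCCCGC and the one of a start 374 bases downstream held none of the letters. Of 35116 promoters of the same length, 0.55% hold TTTGGCGC, 2.79% hold any of the E2F letters and 32% hold CCAAT. The STMN3 promoter in the table, at chr20:62284120-62284369, belongs to a start 658 bases downstream of the MANE Select start and not to the main one, and it held none of the letters searched. A match of letters is a description of the sequence, not a shown binding site.

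Library totals ran from 13459219 to 25441812 counts with a median of 18494528, at which a level of 1 CPM (counts scaled to the library total) is 18.5 counts. The lowest member count was 18, for STMN4 in IMR-32 control replicate 5, with an exact 95% Poisson interval of 10.7 to 28.4 that covers counting error only. IMR-32 replicate 5 stood apart before any comparison. In its control library the 7 mesenchymal markers in the counts summed to 1058 CPM, against 442 to 492 CPM in the other 4 controls, and at 24 h to 797 against 356 to 401 CPM. Of the 8 adrenergic markers, 7 were lower in control replicate 5 than in any other IMR-32 control, with TH, the rate-limiting enzyme of catecholamine synthesis, at 0.804 CPM against 13.1 to 23.7 CPM. All 8 adrenergic markers were detected in every line, and the 5 Schwann and glial markers summed to at most 27.9 CPM in any library. The mesenchymal markers moved with longer PB, with 4 of 6, 4 of 5 and 4 of 7 tested called lower (lines in the order given above), beside 22.3%, 15.5% and 17.3% of all genes, and medians of −1.14, −2.09 and −0.53 on the log2 scale. FN1, which encodes fibronectin, was the one called higher, at 1.57 after 7 days (adjusted p = 0.00039 by edgeR). Their sum went from 547 to 772 CPM in control to 353 to 665 CPM in the first line, from 442 to 1058 to 166 to 312 CPM in the second and from 1266 to 1719 to 977 to 1090 CPM in the third, with no marker at 0 throughout a group. The adrenergic sum was higher at 24 h with no overlap with control, at 2933 to 3147 CPM against 2077 to 2390 CPM in the first line, 3176 to 3982 against 2024 to 3076 CPM in the second and 5715 to 7537 against 3909 to 5163 CPM in the third, with 1, 4 and 2 of the 8 called higher, beside 10.9%, 7.87% and 10.5% of all genes. The part of either marker list in the stathmin changes was not tested. Results that rest on IMR-32 replicate 5 are given with and without it, and in bulk RNA fewer cells of a type and less RNA per cell cannot be told apart.

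**Figure D1:**
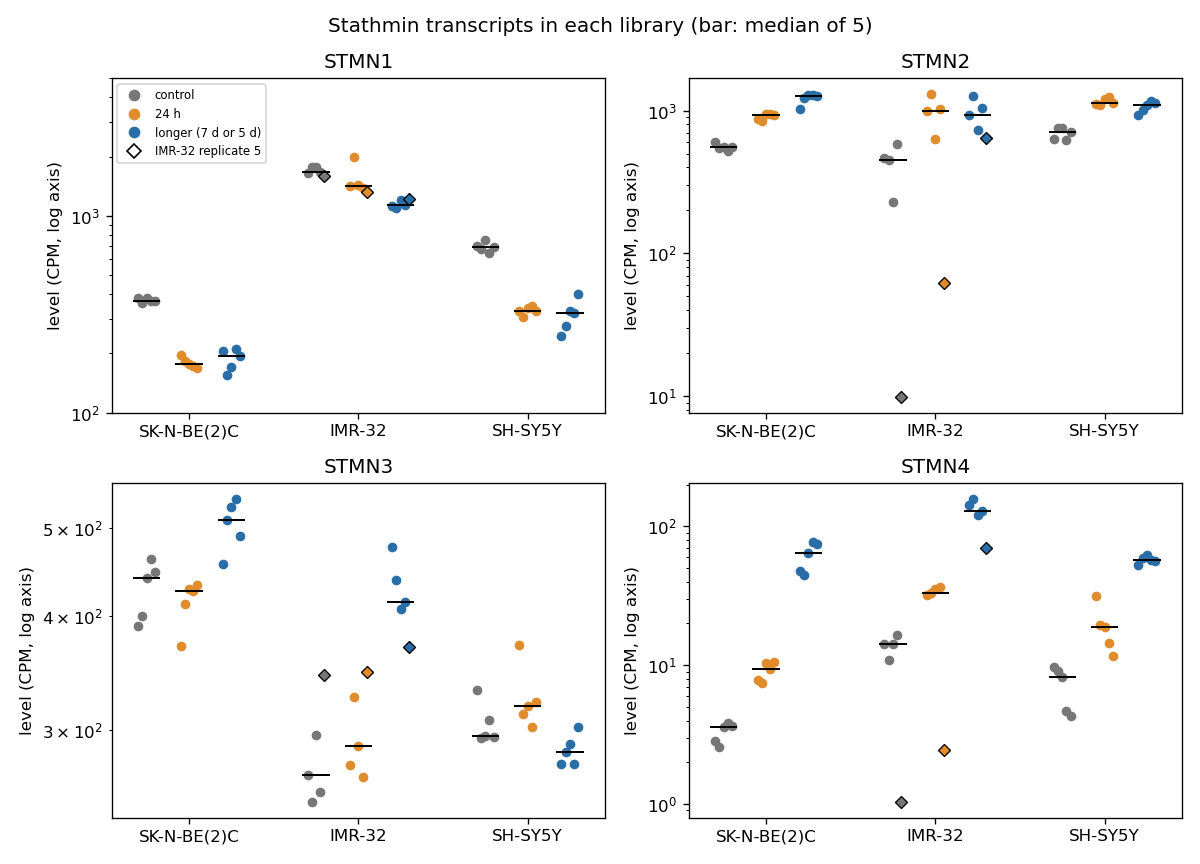
Level of each stathmin transcript in CPM on a log axis, 1 panel per gene, with 1 point per library for control (grey), 24 h (orange) and longer PB (blue) in each line and a bar at the median of 5. STMN1 points lie below the controls at the longer time in each line, with the 24 h points of IMR-32 overlapping its controls, STMN4 medians rise in each line, and the diamonds of IMR-32 replicate 5 lie at 9.83 and 61.6 CPM for STMN2 and at 1.03 and 2.44 CPM for STMN4 in control and at 24 h, below every other library of their groups.

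STMN1, the member of dividing cells, was lower after 24 h of PB in SK-N-BE(2)C and SH-SY5Y and stayed lower at the longer time, whereas in IMR-32 it was lower at the longer time with no call at 24 h. In SK-N-BE(2)C the 5 controls read 382, 359, 381, 367 and 370.3 CPM, the 24 h libraries 197, 184, 176, 172 and 168 CPM and the 7-day libraries 206, 154, 171, 209 and 195 CPM. Every treated library lay below every control, and the 24 h and 7-day libraries overlapped. A change was called where edgeR's quasi-likelihood test gave an adjusted p (Benjamini-Hochberg) under 0.05 and the log2 fold change lay beyond 0.5. By this rule STMN1 fell by 1.08 ± 0.08 (log2 fold change ± SE, adjusted p = 2.1e-08) at 24 h, where 10.6% of all genes tested were called lower, and by 1.03 ± 0.08 (adjusted p = 7.2e-09) at 7 days, where 22.3% were. The 7-day and 24 h groups share their controls, and set directly against each other they differed by 0.05 (95% interval −0.10 to 0.20, adjusted p = 0.61).

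In SH-SY5Y the STMN1 controls read 701, 680.2, 754, 648 and 693 CPM, the 24 h libraries 329, 307, 340.1, 350.0 and 329 CPM and the 5-day libraries 244, 277, 327, 319.8 and 400.5 CPM. Again no treated library reached a control, with the widest spread at 5 days. STMN1 fell by 1.08 ± 0.10 (adjusted p = 1.1e-07) at 24 h and by 1.21 ± 0.10 (adjusted p = 1.5e-08) at 5 days in the edgeR test, beside 11.0% and 17.3% of all genes called lower.

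IMR-32 held the most STMN1 and had the smallest log2 fold changes of it, though in CPM its mean went from 1692 to 1156 at the longer time, a wider gap than from 695 to 314 in SH-SY5Y or from 372 to 187 in SK-N-BE(2)C. Its controls read 1660, 1764, 1767, 1670.0 and 1598 CPM, the 24 h libraries 1425, 1991, 1432, 1389 and 1323 CPM and the 5-day libraries 1118, 1097, 1207, 1135 and 1222 CPM. At 24 h replicate 2 lay above every control while the other 4 lay below every control, and at 5 days all 5 libraries lay below both other groups. The edgeR log2 fold change was −0.11 ± 0.11 (adjusted p = 0.45) at 24 h and −0.56 ± 0.11 (adjusted p = 0.0005) at 5 days, beside 10.5% and 15.5% of all genes called lower. From 24 h to 5 days, where 8.86% of all genes were called lower, it was −0.45 ± 0.11 (adjusted p = 0.0045), short of the fold limit, and −0.52 without replicate 5 (adjusted p = 0.0014), past it. With libraries left out, the 24 h value against control ranged over −0.25 to −0.06.

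STMN2, also named SCG10 and known from growth cones and axon maintenance, rose at both times in SK-N-BE(2)C and SH-SY5Y. Its gene (ENSG00000104435) lies at chr8:80523352-80578393 on the plus strand of GRCh37. In SK-N-BE(2)C it read 600.2, 549, 557, 518 and 557 CPM in control, 865, 843, 953, 951 and 928 CPM at 24 h and 1023, 1220.0, 1283, 1274 and 1272 CPM at 7 days. The 3 groups did not overlap and stood in the order of time. The edgeR log2 fold changes were 0.67 ± 0.06 (adjusted p = 2.6e-07) and 1.08 ± 0.06 (adjusted p = 4e-10), beside 10.9% and 24.5% of all genes called higher, and from 24 h to 7 days 0.41 ± 0.06 (adjusted p = 3.1e-05), under the fold limit.

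In SH-SY5Y STMN2 read 633, 757, 754, 621 and 711 CPM in control, 1114, 1091, 1209, 1251 and 1134 CPM at 24 h and 929.9, 1003, 1099.7, 1162 and 1132 CPM at 5 days. Every treated library lay above every control, and the treated groups overlapped. The log2 fold changes by edgeR were 0.73 ± 0.08 (adjusted p = 8.8e-07) at 24 h, beside 10.5% of all genes called higher, and 0.55 ± 0.08 (adjusted p = 1.2e-05) at 5 days, beside 18.6%. The 5-day value lies near the fold limit and was 0.48 (adjusted p = 0.00027) without replicate 4. In a single fit of all 45 libraries, which share 1 spread with IMR-32, SK-N-BE(2)C lost its call at 24 h (adjusted p = 0.27) and SH-SY5Y at both times (adjusted p = 0.2 and 0.31), with log2 fold changes of 0.67, 0.76 and 0.57.

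In IMR-32 STMN2 turned on replicate 5. The controls read 465, 451, 229, 579.6 and 9.83 CPM, the 24 h libraries 998, 1314, 634, 1029 and 61.6 CPM and the 5-day libraries 927, 1258, 725, 1035 and 641 CPM. Within each replicate number the treated library was above its control at both times, in replicate 5 by 6.27 times at 24 h and 65.3 times at 5 days. Over all libraries the edgeR log2 fold changes of 1.28 ± 0.76 (adjusted p = 0.22) and 1.40 ± 0.76 (adjusted p = 0.14) were not called. Without replicate 5 they were 1.27 ± 0.29 (adjusted p = 0.0039) and 1.18 ± 0.28 (adjusted p = 0.0036), both called higher. With the replicate number as a block the 5-day value was 2.10 ± 0.66 (adjusted p = 0.018). The 5-day comparison met the pairing rule given below narrowly, and the blocked fit also held the 24 h libraries, which were not taken as paired. REST, a repressor of neuronal genes that include STMN2, was at 50.4 CPM in control replicate 5 against 6.27 to 9.47 CPM in the other controls, and at 35.0 against 3.69 to 5.06 CPM at 24 h. The part of REST or of the mesenchymal markers in the STMN2 level of replicate 5 was not tested.

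STMN4, the least abundant member, had the largest log2 fold changes of the family after longer PB, though not the largest in CPM, and it was called higher in every line after longer PB. Its gene (ENSG00000015592) lies at chr8:27092825-27115937 on the minus strand of GRCh37. In SK-N-BE(2)C it read 2.86, 2.59, 3.59, 3.86 and 3.68 CPM in control, 7.79, 7.47, 10.3, 9.37 and 10.5 CPM at 24 h and 48.0, 44.7, 64.2, 77.1 and 74.6 CPM at 7 days. No library of a group reached another group. The edgeR log2 fold change at 24 h was 1.43 ± 0.18 (adjusted p = 8.6e-06), and from 24 h to 7 days a further 2.76 ± 0.16 (adjusted p = 4.2e-09), where 17.5% of all genes were called higher. Against control the 7-day value was 4.19 ± 0.18, an 18.2-fold rise.

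In SH-SY5Y STMN4 read 9.67, 9.10, 8.29, 4.72 and 4.34 CPM in control, 31.4, 19.6, 18.9, 14.5 and 11.7 CPM at 24 h and 52.6, 58.8, 62.1, 57.3 and 56.1 CPM at 5 days. The groups did not overlap, and the spread was wide in control and at 24 h and narrow at 5 days, with coefficients of variation of 34.8%, 39.3% and 6.06%. STMN4 rose by 1.39 ± 0.25 (adjusted p = 0.00035) at 24 h and by 1.53 ± 0.23 (adjusted p = 0.00016) from 24 h to 5 days in the edgeR test, beside 10.5% of all genes called higher in each. Against control the 5-day value was 2.92 ± 0.25 (adjusted p = 1.2e-07).

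In IMR-32 STMN4 read 14.2, 10.9, 14.3, 16.5 and 1.03 CPM in control, 32.1, 32.9, 35.3, 36.8 and 2.44 CPM at 24 h and 142, 159, 121, 129.8 and 70.4 CPM at 5 days. Replicate 5 was the lowest library of each group, and its 24 h library lay below the other 4 controls. The edgeR log2 fold change at 24 h was 1.34 ± 0.59 (adjusted p = 0.094), not called, beside 7.87% of all genes called higher. It was 1.34 ± 0.11 (adjusted p = 7.8e-08) without replicate 5. Within each replicate number the 24 h library was above its control, by 2.23 to 3.01 times. The replicate block called the 24 h change (1.31 ± 0.37, adjusted p = 0.015), in a comparison not taken as paired. At 5 days STMN4 was called higher against control, by 3.43 ± 0.62 (adjusted p = 0.00043), beside 16.6% of all genes. From 24 h to 5 days, where 10.8% of all genes were called higher, it was called higher by 2.09 ± 0.58 (adjusted p = 0.013), a call that was lost without replicate 1 (adjusted p = 0.059) or replicate 2 (adjusted p = 0.057).

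STMN3, also named SCLIP, was not called in SK-N-BE(2)C or SH-SY5Y. It ranged over 390.1 to 462 CPM in control, 371 to 433 CPM at 24 h and 456 to 538 CPM at 7 days in SK-N-BE(2)C, and over 294 to 332, 303 to 372 and 276 to 302 CPM in SH-SY5Y. Its log2 fold changes against control at 24 h and at the longer time were −0.08 and 0.19 for SK-N-BE(2)C, and those for SH-SY5Y were 0.08 and −0.16. The value of 0.19 (adjusted p = 0.0068) and that of −0.16 (adjusted p = 0.022) passed the p limit of the edgeR test and not the fold limit, with opposite signs.

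In IMR-32 STMN3 was called higher at the longer time. It read 268, 250.2, 297, 257 and 345 CPM in control, 275, 326, 288, 267 and 347 CPM at 24 h and 476, 438, 407, 414 and 370.4 CPM at 5 days. Every 5-day library lay above both other groups, which overlapped, and replicate 5 was highest in control and lowest at 5 days. The edgeR log2 fold change was 0.13 ± 0.11 (adjusted p = 0.38) at 24 h and 0.56 ± 0.11 (adjusted p = 0.00062) at 5 days. Without replicate 1 the 5-day value was 0.48 (adjusted p = 0.0095), under the fold limit.

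**Figure D2:**
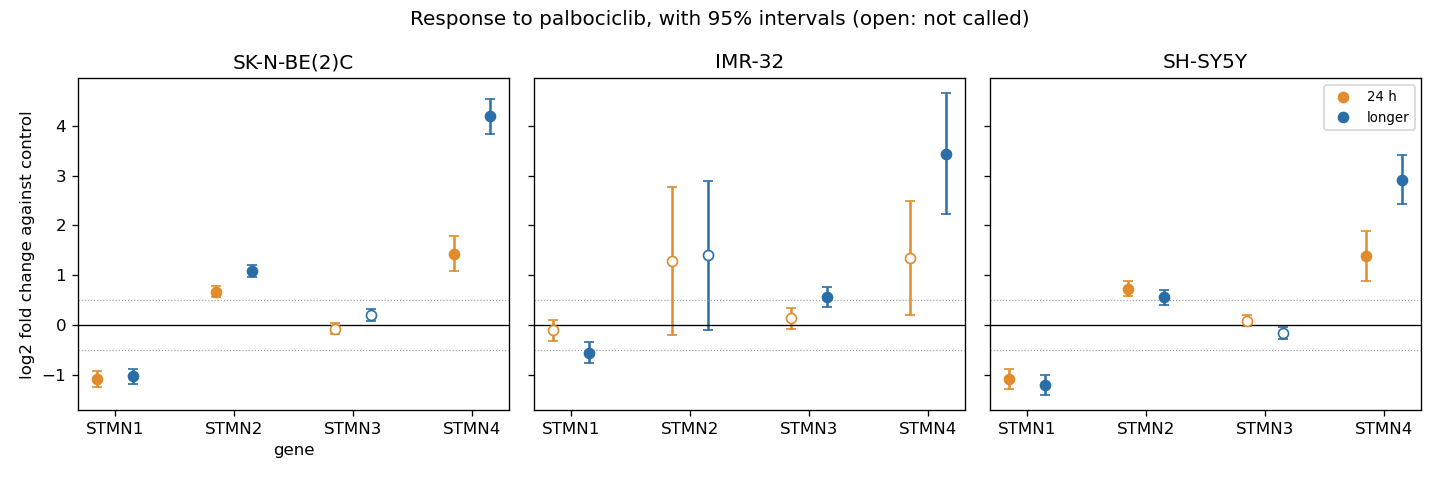
Log2 fold change of each stathmin against control after 24 h (orange) and longer PB (blue), 1 panel per line, with 95% intervals, filled where called and open where not, and dotted lines at the fold limit of 0.5. STMN1 lies below 0 and STMN4 above 0 in every panel, and the intervals of STMN2 and STMN4 are widest in IMR-32, where STMN2 spans −0.21 to 2.77 at 24 h.

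SK-N-BE(2)C had 3 of the 4 members called at each time, and SH-SY5Y likewise had 3, beside 21.5% of all genes at 24 h in both lines and 46.8% and 35.9% at the longer time. In IMR-32 none was called at 24 h, beside 18.3% of all genes, with 1 of the 4, STMN4, at an unadjusted p under 0.05 and 0 called by DESeq2, whereas STMN2 and STMN4 were called without replicate 5. At the longer time 3 were called in IMR-32, beside 32.0%, and all 4 without replicate 5.

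Whether the response differed between lines was tested in a fit of all 45 libraries, with adjusted p under 0.05 as the rule. At 24 h STMN1 fell more in SK-N-BE(2)C than in IMR-32 (difference −0.97, 95% interval −1.24 to −0.69, adjusted p = 1.2e-05) and less in IMR-32 than in SH-SY5Y (0.94, 0.66 to 1.21, adjusted p = 2.5e-05), beside 6.89% and 4.35% of all genes called. SK-N-BE(2)C and SH-SY5Y differed by −0.03 (−0.31 to 0.24, adjusted p = 0.98), beside 3.13%. These 24 h shares moved with the processing, the last from 510 genes to 169 to 949 with libraries left out and 1249 with the replicate block. At the longer time the differences involving IMR-32 were −0.45 (adjusted p = 0.012) and 0.60 (adjusted p = 0.0011), beside 34.5% and 30.6% of all genes called in these edgeR tests. STMN3 differed between every pair of lines at the longer time, by −0.34 between SK-N-BE(2)C and IMR-32 (adjusted p = 0.015), 0.33 between SK-N-BE(2)C and SH-SY5Y (adjusted p = 0.02, beside 31.6%) and 0.67 between IMR-32 and SH-SY5Y (adjusted p = 1.1e-05). With 1 replicate number left out of all groups, the STMN1 difference of −0.45 was −0.40 without number 3 (adjusted p = 0.085). The STMN3 difference from IMR-32 was lost without number 1, 2 or 4 (adjusted p = 0.079, 0.07 and 0.066), and that from SH-SY5Y without number 1, 2, 3 or 4 (adjusted p = 0.054, 0.063, 0.073 and 0.069). Over all 45 libraries without a block no difference of response was called for STMN2 or STMN4, and the intervals were wide, for STMN2 from −1.87 to 0.67 between SK-N-BE(2)C and IMR-32 at 24 h. For STMN2 at the longer time SK-N-BE(2)C exceeded SH-SY5Y by 0.50 (−0.77 to 1.78, adjusted p = 0.6). Without IMR-32 replicate 5, a library outside that pair, this was 0.51 ± 0.21 (adjusted p = 0.06), still not called. For STMN4 at the longer time SK-N-BE(2)C exceeded SH-SY5Y by 1.24 (0.08 to 2.39, adjusted p = 0.11), and without IMR-32 replicate 5 this was called at 1.24 (adjusted p = 0.00095). Without it 2 more differences at the longer time were called, STMN4 between SK-N-BE(2)C and IMR-32 at 0.93 (adjusted p = 0.013) and STMN2 between IMR-32 and SH-SY5Y at 0.58 (adjusted p = 0.042), the latter not called with replicate 5 left out of all lines (0.59, adjusted p = 0.082). With the replicate block, where both arms of the latter comparison met the pairing rule given below narrowly, STMN2 was called at 1.48 (adjusted p = 0.043). The block also gave a call for STMN4 between SK-N-BE(2)C and SH-SY5Y at 1.14 (adjusted p = 0.032), although the SK-N-BE(2)C arm was not taken as paired.

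**Figure D3:**
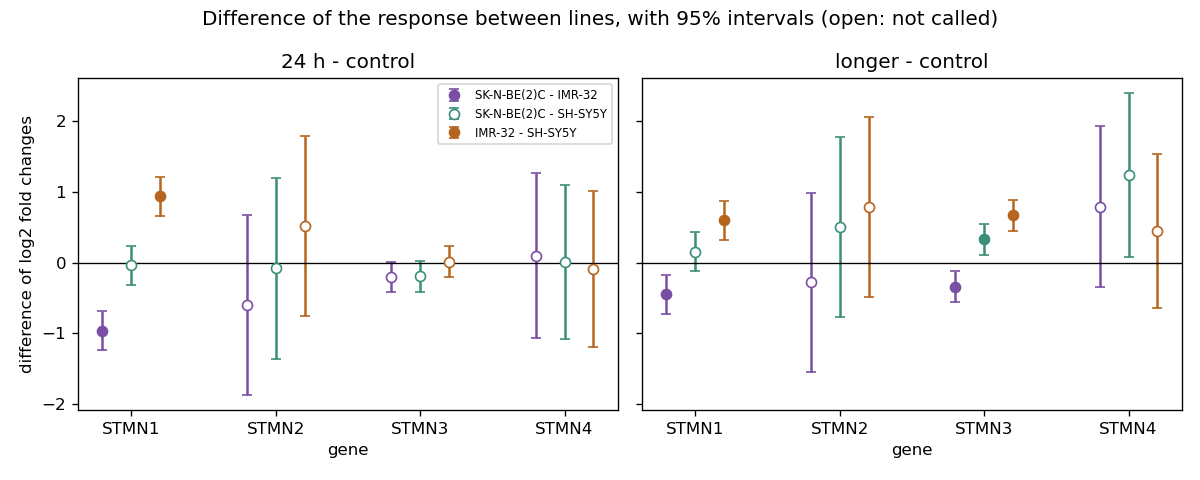
Difference between 2 lines in the log2 fold change of each stathmin, at 24 h (left) and at the longer time (right), with 95% intervals, filled where called and open where not. At 24 h the filled points are the STMN1 differences of −0.97 and 0.94 that involve IMR-32, and the STMN2 and STMN4 intervals all cross 0.

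In the control libraries STMN1 was highest in IMR-32, then in SH-SY5Y, with SK-N-BE(2)C lowest. IMR-32 exceeded SH-SY5Y by 1.47 ± 0.10 on the log2 scale (adjusted p = 1.1e-16), and SK-N-BE(2)C lay under SH-SY5Y by −0.70 ± 0.10 (adjusted p = 4.4e-08) in the edgeR fit of all libraries, beside 54.2% and 57.5% of all genes called. STMN3 was highest in SK-N-BE(2)C, by 0.61 ± 0.08 over IMR-32 (adjusted p = 3.1e-09, beside 62.1% of all genes) and 0.69 ± 0.08 over SH-SY5Y (adjusted p = 1.9e-10), the latter under the fold limit at 0.49 with library size alone. IMR-32 and SH-SY5Y differed in STMN3 by 0.08 (95% interval −0.07 to 0.23). For STMN2 no pair of control groups was called, and for STMN4 SK-N-BE(2)C lay under IMR-32 by −1.79 ± 0.45 (adjusted p = 0.00047). Without IMR-32 replicate 5 all 3 STMN4 pairs were called, and STMN2 was lower in IMR-32 than in SH-SY5Y (−0.51 ± 0.16, adjusted p = 0.0046), a value at the fold limit that was not called with replicate 5 left out of all lines (−0.50, adjusted p = 0.016).

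Levels of different members were compared per kilobase (kb), and their order depended on the length used. In the GENCODE annotation the exons of STMN1 join to 6247 bases, while its MANE Select transcript, the reference transcript of the gene, has 1443 bases. STMN4 was the lowest member in every group by either length. Per kb of all exons, STMN1 made up 12.6% ± 0.137 (SD, n = 5) of the summed stathmin level in SK-N-BE(2)C controls and 3.72% ± 0.647 at 7 days. In IMR-32 the share was 52.0% ± 10.7 in control and 23.4% ± 4.87 at 5 days, and in SH-SY5Y it was 20.1% ± 0.83 and 7.31% ± 0.857. Per kb of the MANE Select transcript it went from 34.7% to 12.8%, from 79.3% to 53.0% and from 48.9% to 23.3%. By either length the share was lower at the longer time in each line. It stayed highest in IMR-32, where STMN1 ranked below STMN2 after PB by the length of all exons and above it by MANE Select.

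**Figure D4:**
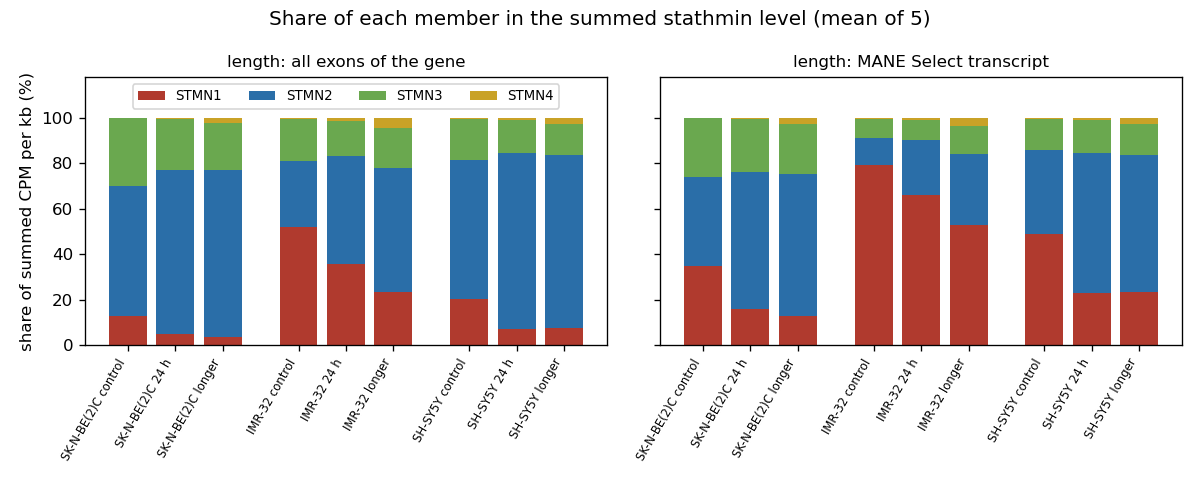
Mean share of each stathmin in the summed CPM per kb of the family, in percent, stacked for each line and group, with lengths from all exons (left) and from the MANE Select transcript (right). The STMN1 part shrinks from control to longer PB in each line, from 52.0% to 23.4% in IMR-32 on the left, and STMN4 is the thinnest part of every bar.

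Of 21 kinases and phosphatases that act on stathmins, the cell-cycle kinases CDK1, CDK2 and AURKB, which phosphorylate STMN1 or act with it in mitosis, were called lower in every line at both times. The log2 fold changes of CDK1 at 24 h, in the order of lines used at the start and kept for the lists, were −2.65 ± 0.24, −3.19 ± 0.16 and −3.10 ± 0.25, and those of AURKB −4.46 ± 0.39, −3.42 ± 0.18 and −5.68 ± 0.57 (edgeR adjusted p at most 2.2e-06). From 24 h to the longer time part of this fall was undone. AURKB was called higher in every line (0.99, 1.49 and 2.49) and CDK1 in IMR-32 (1.74) and SH-SY5Y (1.14), and not in SK-N-BE(2)C (0.14). MAP3K12, the kinase DLK upstream of the JNK kinases that phosphorylate STMN2, was called higher in every line at both times, a call lost at 24 h in IMR-32 without control replicate 5, and stood at 1.08 ± 0.08, 1.12 ± 0.12 and 1.07 ± 0.07 at the longer time. UHMK1, the stathmin kinase KIS, was not called in any line, with values between −0.13 and 0.12. At the longer time 4 and 5 of 21 list genes were called higher and lower in SK-N-BE(2)C, 4 and 3 of 21 in IMR-32 and 2 and 3 of the 20 tested in SH-SY5Y. Over all genes the shares called higher were 24.5%, 16.6% and 18.6% and those called lower 22.3%, 15.5% and 17.3%. The 4 and 5 of 21 in SK-N-BE(2)C, the 4 and 3 of 21 in IMR-32 and the 3 of 20 called lower in SH-SY5Y lie near them. The 2 called higher in SH-SY5Y became 4 without 5-day replicate 5. The list medians of −0.06, −0.02 and −0.01 lay beside medians of 0.012, 0.003 and 0.011 over all genes.

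Of 10 other proteins that take apart or sever microtubules, 5, 4 and 5 were called lower at the longer time, beside 22.3%, 15.5% and 17.3% of all genes, and none was called higher, beside 24.5%, 16.6% and 18.6%. KIF2C, a depolymerising kinesin of centromeres, stood at −3.54 ± 0.31, −2.91 ± 0.10 and −3.87 ± 0.34 at 24 h (edgeR adjusted p at most 5.6e-07). KIF18A and KIF18B, which act on spindle microtubules, were also called lower in every line at both times, at 24 h in IMR-32 too, where STMN1 was not called. The others called lower at the longer time were the severing proteins or their relatives FIGNL1 (SK-N-BE(2)C −1.11, SH-SY5Y −1.26), KATNA1 (SK-N-BE(2)C −0.92, IMR-32 −0.63) and FIGN (−0.87 in SH-SY5Y), which are given to account for every call and not by the rule for named genes.

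Of 11 regulators of stathmin transcripts, 1, 2 and 0 were called higher at the longer time, beside 24.5%, 16.6% and 18.6% of all genes, and 4, 3 and 4 lower, beside 22.3%, 15.5% and 17.3%. FOXM1 and E2F1, activators of cell-cycle genes, were called lower in every line at both times. Those called higher, named here to account for the counts, were the neuronal RNA-binding proteins ELAVL4 (0.76 for SK-N-BE(2)C, 0.62 for IMR-32) and ELAVL3 (0.63 for IMR-32). Their relative ELAVL2 was among those called lower in SH-SY5Y, at −1.51 ± 0.18 (adjusted p = 9.3e-07), and SIN3A, a corepressor, among those in SK-N-BE(2)C, at −0.60. E2F1 stood at −1.62 ± 0.20, −2.07 ± 0.16 and −2.45 ± 0.24 at 24 h (edgeR adjusted p at most 1.1e-05), and FOXM1 at −3.29, −3.10 and −3.37. From 24 h to the longer time E2F1 was called higher in IMR-32 (1.34), where it ended at −0.73 against control, and in SH-SY5Y (0.87). The mean of FOXM1 went from 43.5 to 81.1, from 33.6 to 130.4 and from 29.6 to 73.3 CPM over that interval. TARDBP encodes TDP-43, which is needed for correct splicing of STMN2. It was called lower at the longer time in SK-N-BE(2)C and SH-SY5Y (−0.75 ± 0.06 and −0.75 ± 0.07, adjusted p at most 2.2e-08) and stood at −0.45 ± 0.09 in IMR-32, under the fold limit. REST was called in IMR-32 at the longer time, at −2.19 ± 0.78 (adjusted p = 0.03) and at −1.38 ± 0.20 without replicate 5 (adjusted p = 2.9e-05), while DESeq2 gave −2.22 with no p and so no call. In SH-SY5Y it was −0.50 ± 0.12 (adjusted p = 0.00094), just short of the fold limit, and with the replicate block of this paired comparison −0.50 ± 0.08 (adjusted p = 5e-05), just past it and called. DESeq2 (−0.51) and the fit without replicate 5 (−0.50) called it, and the single fit of all libraries did not (−0.48, adjusted p = 0.41). In SK-N-BE(2)C it was −0.88 ± 0.45 (adjusted p = 0.093), not called.

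Of 12 growth cone proteins, 4, 6 and 2 were called higher at the longer time, beside 24.5%, 16.6% and 18.6% of all genes, and 0, 0 and 3 lower, beside 22.3%, 15.5% and 17.3%. The list medians were 0.09, 0.43 and −0.07, and the 2 called higher in SH-SY5Y lie near the share of all genes. DCX, a microtubule-stabilising protein of migrating neurons, was the one called higher in all 3, by 2.54 ± 0.33, 1.41 ± 0.34 and 0.92 ± 0.12 (adjusted p at most 0.0035). Of the palmitoylation enzymes, 9, 9 and 10 were tested in the 3 lines. At the longer time 1, 1 and 3 were called higher and 2, 1 and 0 lower, none the same way in every line. Beside the shares of all genes just given, the counts in the first 2 lines are near or below the background.

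The genes whose pattern was most like each member were ranked by Pearson r over the 45 libraries, after subtracting the mean of each line, as a description in which points share treatment and line. For STMN4 these were SYT11 (0.979), VAT1, SYT5, RUNDC3B and IQCN (0.952), and for STMN1 HMGB3 (0.944), HINT1, UBE2S, RBMX and DLEU2 (0.923). Without IMR-32 replicate 5, SYT11 and SYT5 remained among the first 5 for STMN4 and HMGB3, HINT1 and UBE2S among those for STMN1. For STMN2 the first was LGALS3BP at 0.973, followed by PNMA8C, JUP, TPPP3 and N4BP3, but none of the 5 remained among the first 5 without IMR-32 replicate 5, where WBP2 led at 0.91. For STMN3 the first was LOC101232810 at 0.933 and the others, LANCL2, KAZN, ATF5 and DYNLL2, reached at most 0.771. Without IMR-32 replicate 5 LOC101232810 still led for STMN3, and GAP43 (0.883), CRIP2, NSG1 and TMEM14A took the places of the other 4. Within the family STMN2 and STMN4 had r = 0.743, STMN1 and STMN4 r = −0.644, and STMN1 and STMN3 r = −0.173. STMN1 and STMN2 had r = −0.297, which was −0.601 without IMR-32 replicate 5, STMN2 and STMN3 0.088, which was 0.417 without it, and STMN3 and STMN4 0.364, which was 0.498.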

How the data were processed

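Poly(A) RNA from 45 libraries was sequenced paired-end with a directional kit. The authors trimmed reads with Trim Galore (0.6.4) and aligned and counted them with STAR on hg19. The STAR version is 2.6.1d per the submitters' processing notes, and the study's methods name another release of it. No source used here names the strand column. The deposited counts are raw counts per gene. The CPM deposited by the authors equal the count over the library total (largest difference 4.7e-11 CPM). The authors' tables of fold changes and p-values were not used. Counts were tested per line (15 libraries) with edgeR 4.0.16 in R 4.3.3 (TMM, filterByExpr with a minimum count of 10, robust quasi-likelihood), leaving 14055 genes for SK-N-BE(2)C, 14293 for IMR-32, 14547 for SH-SY5Y and 16282 in the fit of all libraries. DESeq2 1.42.0, RLE factors, library size alone, no filter, a replicate block and leaving out libraries were alternatives. In SK-N-BE(2)C a further alternative summed the counts of some replicates of a group into a single library. The fits were tested on simulated data. The members and lists were chosen with earlier results of these data known. Named list genes were those called in the same direction in all 3 lines at the longer time, up to 4 per list, with REST, TARDBP, E2F1, FOXM1, CDK1, AURKB and UHMK1 added. Standard errors were derived from the test, and intervals are 1.96 SE.

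The 5 replicate numbers recur in each group. They were taken to pair libraries where all 5 same-numbered pairs of deviations from the group means correlated above 0.1. The outcome depended on the genes used, and a second gene set was tried after the blocked fits had been seen, so a comparison was called paired only where both sets passed. Over the 12556 genes tested in all 3 lines and over the genes tested in the line, the lowest correlations were 0.21 and 0.243 for SK-N-BE(2)C at 24 h, 0.117 and 0.114 for IMR-32 at the longer time, and at least 0.102 for SH-SY5Y in each comparison. IMR-32 at 24 h (0.0787 and 0.129) was not called paired, because the sets disagreed. At the longer time 3 and 2 of the 5 IMR-32 libraries correlated best with the control of their own number, by the first and the second set. No pair of replicates of a group agreed within sampling noise (chi-square per degree of freedom 1.69 to 86.9 over 90 pairs). This does not show that all replicates were independent cultures. In SK-N-BE(2)C at 24 h the proliferation gene MKI67 read 57.0, 48.6, 25.3, 24.6 and 24.4 CPM in order of replicate number.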

Additional observations from a re-analysis of the deposited data

Results flagged for a closer look

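Of 36 sets of 5 libraries (4 genes, 9 groups), 6 had an end library whose gap to its neighbour exceeded 0.71 of the whole range, Dixon's 95% value, which chance passes in about 1 of 20 sets. In IMR-32 replicate 5 was the lowest library for STMN2 in control (gap 0.773 of the range) and at 24 h (0.762), and for STMN4 in control (0.852) and at 24 h (0.95). STMN1 in IMR-32 at 24 h was highest in replicate 2 (0.806), at 1991 CPM, and STMN2 in SK-N-BE(2)C at the longer time was lowest in replicate 1 (0.778), at 1023 CPM.

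The response of STMN1 differed between lines at 24 h by −0.97 (SK-N-BE(2)C minus IMR-32) and 0.94 (IMR-32 minus SH-SY5Y) on the log2 scale, and at the longer time by −0.45 and 0.60 for the same pairs. That of STMN3 differed at the longer time by −0.34 for SK-N-BE(2)C minus IMR-32, by 0.33 for SK-N-BE(2)C minus SH-SY5Y and by 0.67 for IMR-32 minus SH-SY5Y. The calls of −0.45, −0.34 and 0.33 were lost with some replicate numbers left out, as given above. At the longer time 30.6% to 34.5% of all genes were called in these tests. At the longer time SK-N-BE(2)C had 7 days and the other lines 5 days of PB, which cannot be told apart from the line.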

How the results depend on the processing

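Within lines, 925 of 948 values of the 4 members under the alternatives kept their direction and their side of the limits, 11 gained and 7 lost a call and 5 changed sign, and the cause was not tested. The signs changed for STMN1 from 24 h to 7 days in SK-N-BE(2)C (−0.01 to 0.13 with libraries left out, −0.03 with replicates summed) and for STMN2 from 24 h to 5 days in IMR-32 (−0.19 to 0.39; −0.19 and −0.02 without a single library, −0.08 without replicate 5). With libraries left out, values whose call changed ranged over 1.05 to 1.63 (STMN4, IMR-32, 24 h), 0.97 to 1.58 (STMN2, IMR-32, 24 h), 1.08 to 1.66 (STMN2, IMR-32, 5 days), 0.48 to 0.69 (STMN3, IMR-32, 5 days), 0.48 to 0.60 (STMN2, SH-SY5Y, 5 days) and, from 24 h to 5 days in IMR-32, 1.80 to 2.24 (STMN4), 0.34 to 0.52 (STMN3) and −0.52 to −0.29 (STMN1). In 1 fit of all libraries STMN2 was 0.67, 0.76 and 0.57 where its call was lost, and in IMR-32 STMN2 (1.27 and 1.35) and STMN4 at 24 h (1.33) gained one.

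With the replicate number as a block, STMN2 at 5 days (2.10) and STMN4 at 24 h (1.31, adjusted p = 0.015) were called in IMR-32, the latter in a comparison not taken as paired, and the block changed no other call of the 4 members within a line. It also called REST lower at the longer time in SK-N-BE(2)C (−0.90, adjusted p = 0.042), a comparison not taken as paired, and in SH-SY5Y (−0.50), and it moved the count of all genes called at 24 h in IMR-32 from 2620 to 3122. Between lines the block gave calls for STMN4 (1.14, SK-N-BE(2)C minus SH-SY5Y) and STMN2 (1.48, IMR-32 minus SH-SY5Y) at the longer time, and 2097, 1249 and 1586 genes in place of 1122, 510 and 708 at 24 h. Leaving out replicates gave 516 to 1611, 169 to 949 and 254 to 1033, with 949 for the second without IMR-32 replicate 5, and no filter gave 252 for the second.

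Differences between lines ranged, with libraries left out, over −0.47 to −0.26 and 0.28 to 0.39 (STMN3, SK-N-BE(2)C minus IMR-32 and minus SH-SY5Y, longer), −0.50 to −0.40 (STMN1, SK-N-BE(2)C minus IMR-32, longer), 0.59 to 0.93 and 1.10 to 1.34 (STMN4, SK-N-BE(2)C minus IMR-32 and minus SH-SY5Y, longer; 0.93 and 1.24 without IMR-32 replicate 5) and 0.58 to 1.08 (STMN2, IMR-32 minus SH-SY5Y, longer; 0.58 without it). At 24 h uncalled differences changed sign: STMN4 −0.27 to 0.06 (0.06 and 0.00) and −0.09 to 0.13 (−0.09, −0.06 and −0.01), STMN3 −0.07 to 0.06 (−0.07 and −0.01; −0.01 with library size alone and no filter) and STMN1 −0.07 to 0.02 (0.02; 0.01 with RLE factors and DESeq2, 0.02 with library size alone and no filter). Among controls, leaving libraries out gave −1.12 to −0.76 and 0.56 to 1.13 (STMN4), −1.12 to −0.50 (STMN2) and −0.02 to 0.13 (STMN3; −0.02, and −0.01 without IMR-32 replicate 5, where STMN4 was −0.93 and 1.13 and STMN2 −0.51). Library size alone gave 0.49 (SK-N-BE(2)C minus SH-SY5Y, its call lost) and −0.11 for STMN3 and −1.14 for STMN4, and DESeq2 −0.96.

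The STMN1 share with the longest transcript, MANE Select (chosen after seeing the data) and no length was 21.0%, 34.7% and 27.4% in SK-N-BE(2)C controls and 6.77%, 12.8% and 9.55% at 7 days. It was 65.9%, 79.3% and 72.9%, then 36.0%, 53.0% and 44.6% in IMR-32, and 32.2%, 48.9% and 40.8%, then 13.0%, 23.3% and 18.1% in SH-SY5Y. By Spearman's rho 3, 0, 2 and 2 of the first 5 genes like STMN1 to STMN4 remained. Of 1580 counts of list genes under alternatives, 37 moved by over 1.5 times. Leaving out IMR-32 replicate 5 between lines was chosen after seeing the data. Depth limits STMN4 most, at 18 counts in 1 library.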
